A study of Mus musculus with 9 samples.

Results

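The HoxD cluster of the mouse was examined in cultured brown and white fat cells by its DNA methylation. The members were all cytosines of the deposited table of reduced representation bisulfite sequencing (RRBS) that lay between positions 74480000 and 74610000 of chromosome 2 (mm9), a stretch from Evx2 through Hoxd13 to Hoxd1. They were chosen by position alone, and there were 756 of them among the 838481 cytosines of the table. They belonged to 434 CpG dinucleotides, of which 322 were measured on both strands, with a separate value for each strand. In RRBS, genomic DNA is cut with restriction enzymes whose sites hold a CpG, here MspI and TaqI, and bisulfite turns unmethylated cytosine into a base read as thymine. The methylation level of a cytosine is the percent of its reads that stayed cytosine.

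Preadipocytes came from 8 BL6 mice of 3 weeks of age, brown cells from the interscapular depot and white cells from the inguinal depot. Cell type and depot therefore cannot be told apart. The 4 brown libraries were BAT at days 0, 4 and 6 of differentiation and BAT + NE, day 6 cells after 4 h of norepinephrine. The 5 white libraries were WAT at days 0, 4 and 6 and BWAT at days 4 and 6, white cells differentiated in the presence of norepinephrine. Day 0 was the confluent preadipocyte, and all later cells had received the same mixture of insulin, dexamethasone, isobutylmethylxanthine and rosiglitazone. Each condition was 1 library. The labels do not say whether libraries of a cell type came from separate cultures. The study's methods describe the white cells differentiated with norepinephrine as an independent set. The p-values here cover no more than the spread among the 9 libraries, which may be technical.

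Hox genes encode homeodomain transcription factors that give cells a position along the body axis and the limb. They lie in clusters in which the order of the genes follows the order of their expression, so that Hoxd1 to Hoxd4 act towards the head and Hoxd9 to Hoxd13 towards the tail and in the distal limb. CpG-rich starts of Hox genes are kept largely free of DNA methylation in most tissues, where polycomb proteins often hold silent Hox genes, and Hox expression in fat differs between depots.

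The sequences that carry the differences described here are printed with every measured CpG in capitals, read 5′ to 3′ on the forward strand of NCBIM37, the assembly behind mm9. The Hoxd4 exon held the widest difference between brown and white cells, and is shown as chr2:74566357-74566415 and as the 30 bases chr2:74566421-74566450 around its widest cytosine. The fragments in the introns of Hoxd3 at chr2:74570723-74570813 and chr2:74572733-74572844 also differed. The Hoxd4 promoter at chr2:74559716-74559872 is shown because its mean lay in the other direction. The Hoxd13 exon at chr2:74506713-74506976 stands for the CpG-dense sequence of low methylation, in which most measured cytosines of the cluster lay.
Hoxd4 exon, first part: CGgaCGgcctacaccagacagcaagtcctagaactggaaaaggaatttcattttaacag
Hoxd4 exon, core: tgaccaggCGcCGtCGgattgaaatCGctc
Hoxd3 intron, fragment 24: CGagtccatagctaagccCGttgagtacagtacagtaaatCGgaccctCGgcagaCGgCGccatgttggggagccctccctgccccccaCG
Hoxd3 intron, fragment 25: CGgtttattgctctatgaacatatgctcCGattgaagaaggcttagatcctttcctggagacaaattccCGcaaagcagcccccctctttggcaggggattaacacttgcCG
Hoxd4 promoter: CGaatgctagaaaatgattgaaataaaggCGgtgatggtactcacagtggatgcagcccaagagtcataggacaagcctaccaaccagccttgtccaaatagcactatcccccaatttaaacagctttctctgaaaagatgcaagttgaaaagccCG
Hoxd13 exon: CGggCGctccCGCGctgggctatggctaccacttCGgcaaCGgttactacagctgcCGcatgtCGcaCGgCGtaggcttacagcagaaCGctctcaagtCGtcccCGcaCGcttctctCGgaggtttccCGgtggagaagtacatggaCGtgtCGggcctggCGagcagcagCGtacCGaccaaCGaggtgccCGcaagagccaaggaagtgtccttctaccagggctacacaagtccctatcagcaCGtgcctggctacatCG

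Every CpG of the printed stretches was measured. The Hoxd13 exon holds 25 CpGs in 264 bases, against 4 in the 112 bases of Hoxd3 fragment 25 and 3 in the 157 bases of the Hoxd4 promoter.

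Most measured cytosines of the cluster had low methylation. Sequence without measured cytosines has no value here. Averaged over the 9 libraries, 638 of the 756 cytosines were under 30%, 92 were between 30% and 70%, and 26 were above 70%. The share under 30% was 84.4% in the cluster and 51.3% over the whole table. By annotation, 422 cytosines lay in promoters (1000 bp upstream to 500 bp downstream of a transcription start), 229 in exons, 86 in introns and 19 between genes. Neighbouring cytosines were joined into fragments wherever 4 or more followed each other with no gap over 300 bp. The cluster gave 35 fragments, numbered from Evx2 to Hoxd1, which held 750 of the cytosines and left 6 outside.

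From Evx2 to Hoxd9, measured levels stayed low over the posterior genes of the cluster, which pattern the tail end of the trunk, the limb and the genital tubercle. The stretch of Evx2, a homeobox gene next to Hoxd13, averaged 5.46% in brown libraries and 5.37% in white libraries over 111 cytosines. Of these, 108 lay inside the gene, and the rest lay at the lower edge of the window, outside any fragment. Among the rest, the cytosine at 74480398 averaged 72.3% in brown libraries and 67.7% in white libraries. The stretch of Hoxd13, the last gene of the cluster and a regulator of digits, averaged 5.61% in brown libraries and 4.99% in white libraries. The other posterior stretches averaged between 4.08% and 8.87% in brown libraries and between 4.27% and 9.99% in white libraries. Among the fragments, a short exception was fragment 18, 4 cytosines between Hoxd9 and Hoxd8 (74538956 to 74539062), with means of 56.6% in brown libraries and 60.4% in white libraries.

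From Hoxd8 to Hoxd1 the levels were uneven. The Hoxd8 start and the distal Hoxd3 start averaged below 2% in both cell types, whereas Hoxd8 fragment 20 (74544677 to 74544787), in coding sequence, averaged 60.8% in brown libraries and 58.8% in white libraries. The stretch of Hoxd4 was the most methylated one, with 64.9% in brown libraries and 78.8% in white libraries over 18 cytosines. The part of Hoxd3 beyond Hoxd4 averaged 31.1% in brown libraries and 35.9% in white libraries over 150 cytosines. In Hoxd1, the first gene of the cluster, CpG-dense sequence at the start was at 2.07% in brown libraries and 1.27% in white libraries (fragment 32), while fragment 35 in coding sequence reached 77.8% in brown libraries and 75.2% in white libraries.

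**Figure D1:**
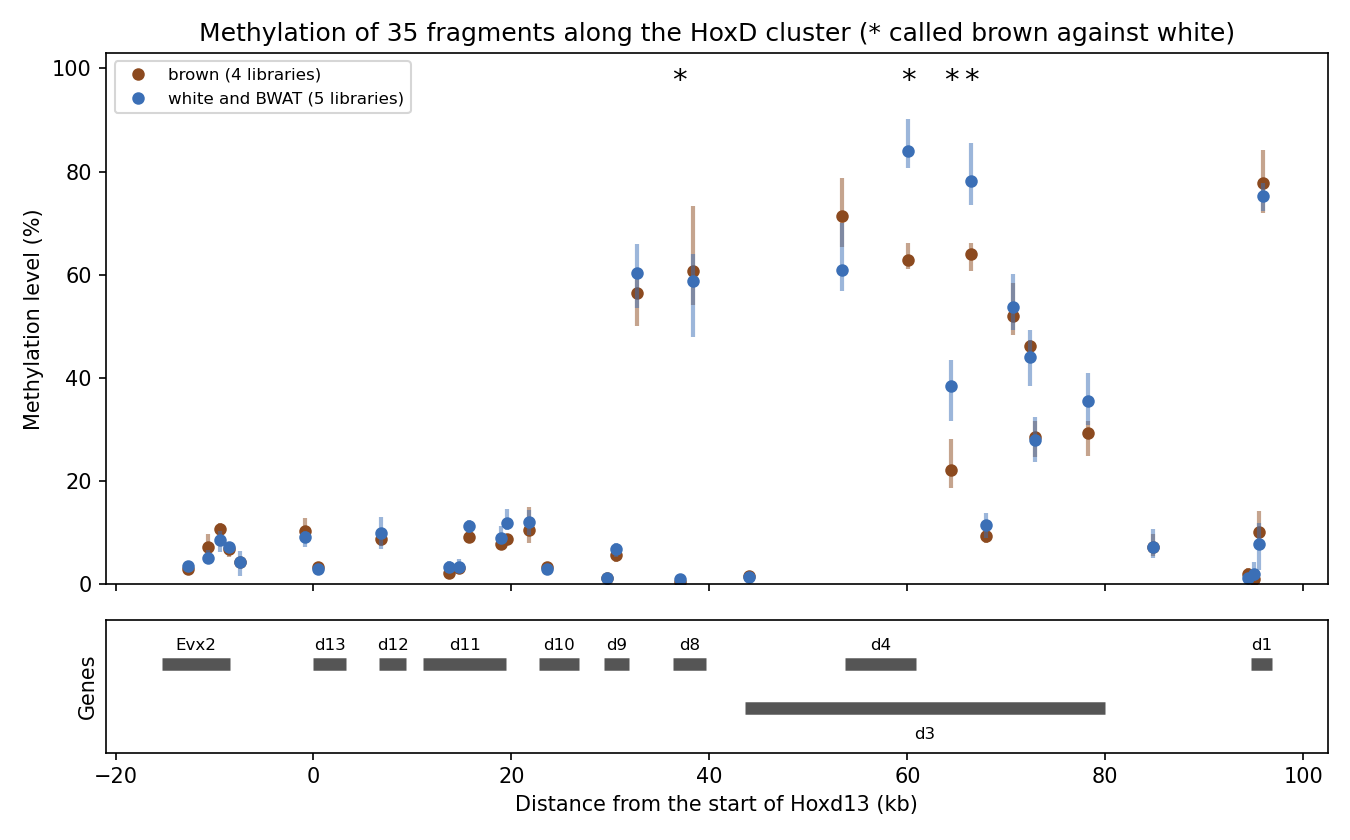
Mean methylation level (%) of the 35 fragments against the distance from the start of Hoxd13 (kb), for 4 brown libraries and 5 white and BWAT libraries. Bars span the lowest to the highest library, and stars mark the 4 fragments called between the cell types. Low levels fill the posterior side, and separated bars appear around Hoxd4 and Hoxd3.

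Averaged over its measured cytosines, the cluster was slightly less methylated in brown libraries. Its mean over all 756 cytosines was 11.5%, 12.99% and 12.5% in BAT at days 0, 4 and 6 and 12.6% in BAT + NE, against 13.5%, 13.9% and 13.9% in WAT at days 0, 4 and 6 and 14.5% and 13.5% in BWAT at days 4 and 6. The highest brown library (12.99%) was below the lowest white library (13.48%), so the groups did not overlap. The difference was -1.45 points, with no test since it is a score over the members. Means over the whole table were 40.6% in brown libraries and 41.0% in white libraries. The other Hox clusters were lower in brown libraries too, also without overlap between the groups. HoxA, HoxB and HoxC had 11.8%, 15.7% and 12.6% in brown libraries, against 17.4%, 23.7% and 17.6% in white libraries. Within HoxD the difference was uneven, with 21 fragments lower and 14 higher in brown libraries by mean. By stretch, it was -14.0 points over Hoxd4 and -4.75 points over Hoxd3 beyond Hoxd4. In the other stretches it lay between -1.43 and 0.877 points. In CpG-dense sequence, the 582 cytosines averaged 8.74% in brown libraries and 10.3% in white libraries, and the 174 others averaged 24.7% in brown libraries and 25.9% in white libraries. Dense meant a GC content above 50% and an observed to expected CpG ratio above 0.6 within 200 bp.

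Brown and white libraries were then compared fragment by fragment by limma, after each level was turned into log2((level + 1)/(100 - level + 1)), a logit scale, and with a term for day 0 against later days. Benjamini-Hochberg adjustment ran over all 67233 fragments of the table, and an adjusted p below 0.05 was called. In HoxD, 4 of 35 fragments were called, which is 11.4%, beside 9.43% over the whole table, and the share as such lay near that background. All 4 were lower in brown libraries, the direction of 5.91% of the fragments of the table, and 0 were higher in brown libraries, beside 3.52%. Without adjustment, 9 of 35 had a p below 0.05, beside 21.7% over the table. Brown and white libraries did not overlap in 6 fragments (17.1%, beside 12.3%), all lower in brown libraries (the background was 7.76%), and the means were at least 10 points apart in 4 fragments (the background was 6.05%).

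The median difference over the 35 fragments was -0.378 points, beside -0.0901 points over all fragments of the table. The 18 fragments from Evx2 to Hoxd9 held 0 calls by limma, with 3 at an unadjusted p below 0.05, and 2 of the 6 fragments without overlap, 11 and 13, lay among them. In the 25 fragments under 30% the difference lay between -3.03 and 2.48 points. In the 10 fragments at or above 30% it lay between -21.0 and 10.6 points. Hoxd4 and the neighbouring introns of Hoxd3 held 3 of the 4 calls, within 6488 bp.

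The widest difference lay in the Hoxd4 exon, fragment 23 (74566357 to 74566499), in the second coding exon, which encodes the homeodomain. Hoxd4 patterns the hindbrain and the neck vertebrae. The fragment held 14 cytosines, and the same bases are intron or 5′ untranslated exon of long Hoxd3 transcripts. Levels were 61.4%, 61.2% and 63.1% in BAT at days 0, 4 and 6 and 66.2% in BAT + NE, against 84.3%, 80.6% and 90.1% in WAT at days 0, 4 and 6 and 81.1% and 83.6% in BWAT at days 4 and 6. All brown libraries were lower than all white libraries, with means of 63.0% ± 2.34 in brown libraries and 84.0% ± 3.80 in white libraries (SD, n = 4 and 5). On the logit scale the difference was -1.60 (SE 0.22, limma, Benjamini-Hochberg adjusted p = 0.00155), and it was called under each of 15 alternatives tried, with adjusted p between 0.000721 and 0.0298.

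The 14 single cytosines of this exon make up the fragment mean, so their direction is not separate support for it. All 14 were lower in brown libraries, by 14.2 to 33.1 points, and all 6 CpGs with both strands were lower on both. Of the 14 cytosines, 10 had no overlap between the groups, beside 3.77% of the table. The widest was the C of the third CpG in the printed core, at 74566435 on the forward strand. It had 39.1%, 42.3% and 46.4% in BAT at days 0, 4 and 6 and 51.2% in BAT + NE, against 66.7%, 80.0% and 85.7% in WAT at days 0, 4 and 6 and 77.6% and 79.3% in BWAT at days 4 and 6. The groups did not overlap, and the difference on the logit scale was -2.08 (SE 0.21, limma, Benjamini-Hochberg adjusted p = 0.0193 over 838481 cytosines). The cytosine opposite the CpG before it, at 74566433 on the reverse strand, averaged 45.4% in brown libraries and 68.1% in white libraries and was called too (limma, adjusted p = 0.0305).

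**Figure D2:**
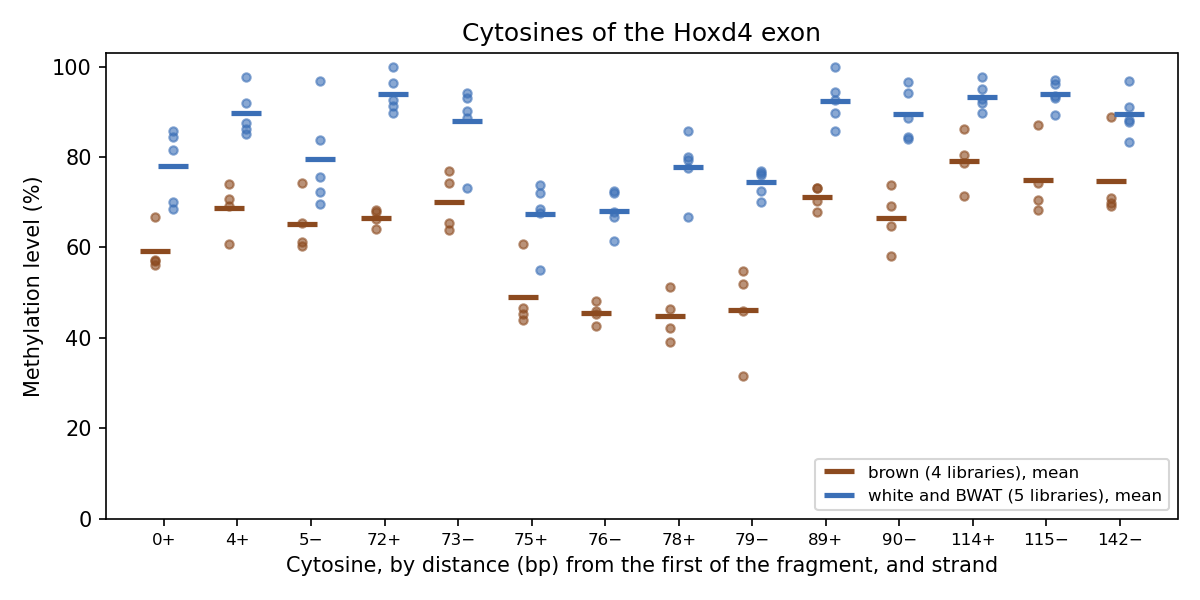
Methylation level (%) of the 14 cytosines of the Hoxd4 exon, ordered by distance (bp) from the first cytosine of the fragment and marked by strand. Points are libraries, 4 brown and 5 white and BWAT, and short lines are group means. Brown means lie below white means at all 14, and both groups are lowest over the CpGs in the middle of the fragment.

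The 143 bases of this fragment are shared in part with other Hox genes. The closest other Hox coding sequence in an alignment without gaps was that of Hoxa4, with 116 identical bases and 27 mismatches, followed by Hoxb4 with 111 identical bases. Whether reads were shared between them was not tested.

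Fragment 24 (74570723 to 74570813) lay in an intron of long Hoxd3 transcripts, just upstream of a transcript start annotated inside the gene at 74570971. Hoxd3 patterns the upper neck. Its 14 cytosines were at 18.6%, 28.3% and 20.03% in BAT at days 0, 4 and 6 and at 21.9% in BAT + NE, against 31.7%, 42.5% and 36.7% in WAT at days 0, 4 and 6 and 43.5% and 37.5% in BWAT at days 4 and 6. The groups did not overlap, and BAT of day 4, the highest brown library, lay just below WAT of day 0, the lowest white library. The means were 22.2% ± 4.26 in brown libraries and 38.4% ± 4.79 in white libraries (SD, n = 4 and 5), a difference of -1.08 on the logit scale (SE 0.16, limma, Benjamini-Hochberg adjusted p = 0.00273). All 14 cytosines were lower in brown libraries by mean, by 4.82 to 32.5 points, and 7 of 7 CpGs were lower on both strands. These cytosines make up the fragment mean, so their direction is not separate support for it. The printed sequence holds 7 CpGs in 91 bases.

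Fragment 25 (74572733 to 74572844), 6 cytosines in the same intron, was highly methylated. Levels were 66.3%, 65.8% and 60.7% in BAT at days 0, 4 and 6 and 63.2% in BAT + NE, against 79.4%, 74.8% and 85.6% in WAT at days 0, 4 and 6 and 73.5% and 77.3% in BWAT at days 4 and 6. All brown libraries were lower than all white libraries. The means were 64.0% ± 2.58 in brown libraries and 78.1% ± 4.76 in white libraries (SD, n = 4 and 5), a difference of -1.01 on the logit scale (SE 0.21, limma, Benjamini-Hochberg adjusted p = 0.0149). Of its 6 cytosines, all lower in brown libraries by mean, 3 had no overlap, beside 3.77% of the table. They make up the fragment mean and are not separate support for it. With the 6 libraries without norepinephrine and day as a factor, the adjusted p was 0.0520 for fragment 24 and 0.114 for fragment 25.

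Between the Hoxd4 exon and fragment 24, 2 single cytosines on the reverse strand lay outside any fragment. The cytosine at 74567494 averaged 66.0% in brown libraries and 89.0% in white libraries, and the one at 74567516 averaged 72.1% in brown libraries and 93.9% in white libraries. Neither was called (limma, adjusted p = 0.462 and 0.216), and in both BAT of day 4, at 90.9%, lay among or at the lower edge of the white libraries. On the far side of the called stretch, fragment 26 (74574049 to 74574602), 1205 bp beyond fragment 25 and around another internal Hoxd3 start, averaged 9.44% in brown libraries and 11.5% in white libraries and was not called (limma, adjusted p = 0.366).

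The Hoxd4 promoter that had a value, at the outermost annotated start and 6485 bp below the exon, had its mean in the other direction. The middle of the exon lay 1304 bp past another annotated Hoxd4 start, which had no promoter value. Fragment 22 (74559716 to 74559872), its 4 cytosines, lay in an intron of Hoxd3 and was at 78.8%, 65.4% and 73.4% in BAT at days 0, 4 and 6 and at 68.3% in BAT + NE, against 56.9%, 70.1% and 58.9% in WAT at days 0, 4 and 6 and 61.8% and 56.9% in BWAT at days 4 and 6. WAT of day 4 lay within the range of the brown libraries. The means were 71.5% ± 5.88 in brown libraries and 60.9% ± 5.54 in white libraries (SD, n = 4 and 5). This difference of 10.6 points was not called, at 0.67 on the logit scale (SE 0.23, limma, Benjamini-Hochberg adjusted p = 0.117). The fragment was called under 1 of 14 alternatives, the fit without WAT of day 4 (limma, adjusted p = 0.0409). The largest adjusted p among the alternatives was 0.397. The outer cytosines of the fragment lie inside restriction sites. The first was at 35.1% in brown libraries and 24.98% in white libraries, and the last, which had the widest difference, was at 67.05% in brown libraries and 46.7% in white libraries. The 2 cytosines outside such sites averaged 91.9% in brown libraries and 86.0% in white libraries, a difference of 5.89 points.

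**Figure D3:**
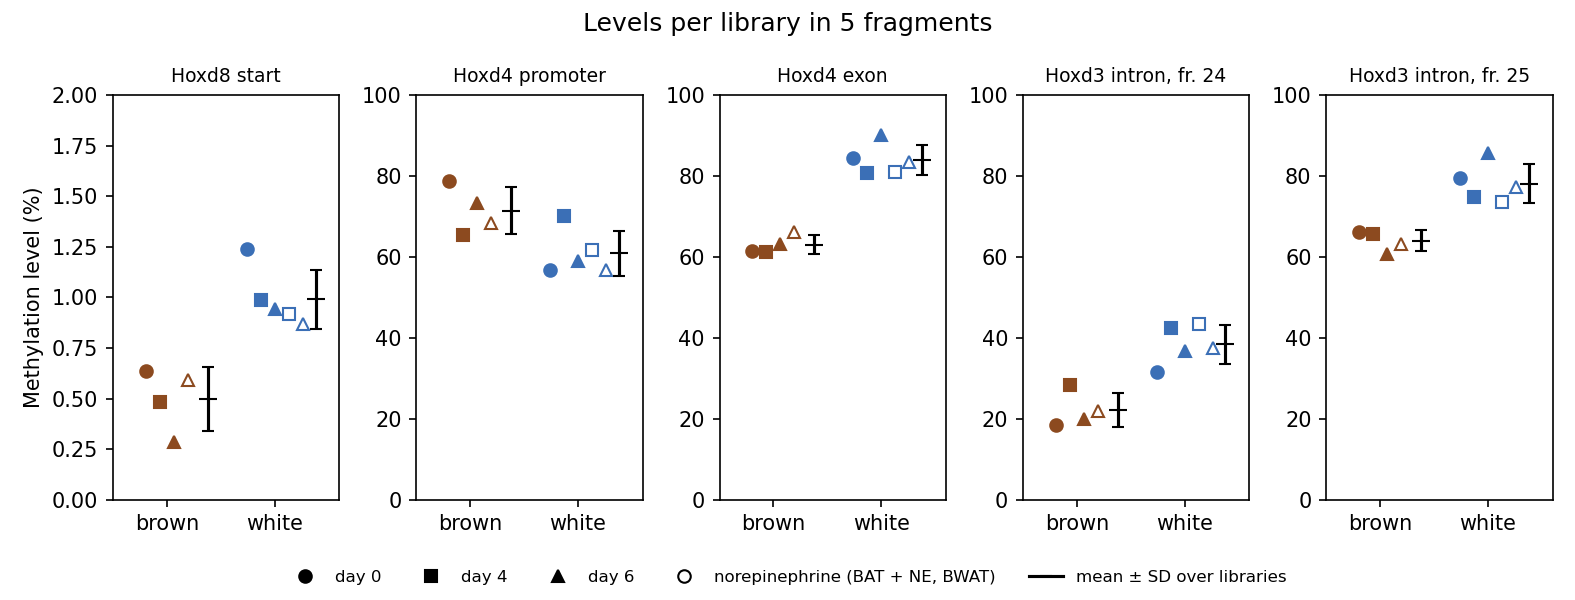
Methylation level (%) of each of the 9 libraries in 5 fragments, brown left of white and BWAT, with marker shape for the day and open markers for norepinephrine (BAT + NE and BWAT). Black bars are mean ± SD over libraries. The Hoxd8 panel has its own axis, which ends at 2%, and the groups overlap only in the Hoxd4 promoter.

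The remaining call, fragment 19 (74543315 to 74543433), lay in the 5′ untranslated part of Hoxd8, a gene of the middle of the cluster, and concerned values close to 0. Its 44 cytosines were at 0.637%, 0.483% and 0.284% in BAT at days 0, 4 and 6 and at 0.590% in BAT + NE, against 1.24%, 0.987% and 0.943% in WAT at days 0, 4 and 6 and 0.920% and 0.869% in BWAT at days 4 and 6. The groups did not overlap. The difference of -0.494 points was -0.43 on the logit scale (SE 0.12, limma, Benjamini-Hochberg adjusted p = 0.0467), and it was not called under any of 14 alternatives, with adjusted p between 0.0565 and 0.550. Of 21 CpGs with both strands, 6 were lower in brown libraries on both.

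Fragments 11 and 13 also had no overlap but were not called. Fragment 11 (74521977 to 74522101), in coding sequence of Hoxd11, a gene of forearm and kidney development, was at 8.96%, 9.41% and 9.32% in BAT at days 0, 4 and 6 and at 9.07% in BAT + NE, against 11.6%, 12.1% and 12.5% in WAT at days 0, 4 and 6 and 10.6% and 9.99% in BWAT at days 4 and 6 (limma, adjusted p = 0.168). Fragment 13 (74525799 to 74526097), in an intron of the noncoding transcript Gm20440 just past Hoxd11, was at 8.33%, 9.50% and 8.69% in BAT at days 0, 4 and 6 and at 8.77% in BAT + NE, against 11.4%, 11.7% and 14.6% in WAT at days 0, 4 and 6 and 11.0% and 10.6% in BWAT at days 4 and 6 (limma, adjusted p = 0.0856). Over the whole Hoxd11 stretch, the 116 cytosines averaged 5.06% ± 0.361 in brown libraries and 6.49% ± 0.515 in white libraries (SD, n = 4 and 5), also without overlap.

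The other highly or partly methylated fragments had overlapping groups. Fragments 27 and 28, in Hoxd3 introns, averaged 52.1% and 46.1% in brown libraries and 53.8% and 44.1% in white libraries. Fragment 30 (74584498 to 74584827), 42 cytosines of Hoxd3 coding sequence, was at 24.9%, 30.7% and 29.7% in BAT at days 0, 4 and 6 and at 31.7% in BAT + NE, against 39.3%, 32.3% and 30.8% in WAT at days 0, 4 and 6 and 41.0% and 34.4% in BWAT at days 4 and 6. There 38 of 42 cytosines were lower in brown libraries by mean, BAT + NE lay above WAT of day 6, and the fragment was not called (limma, adjusted p = 0.215).

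Single cytosines were tested in the same way. Of 756 cytosines, 3 were called by limma, beside 0.516% of the table, of which 2 were lower (the table had 0.312%) and 1 was higher (the table had 0.204%) in brown libraries. Besides the pair in the Hoxd4 exon, this was the cytosine at 74550225 on the reverse strand, at the distal Hoxd3 start, with 4.17%, 1.54% and 2.33% in BAT at days 0, 4 and 6 and 2.17% in BAT + NE, against 1.35%, 0.00% and 0.00% in WAT at days 0, 4 and 6 and 0.00% in both BWAT libraries. The difference was 2.28 points (limma, adjusted p = 0.0117), and the number of reads behind these values is unknown beyond the minimum of 10. At an unadjusted p below 0.05 there were 64 cytosines (8.47%, beside 9.28% of the table), of which 46 were lower (6.08%, beside 5.12%) and 18 were higher in brown libraries (2.38%, beside 4.16%). No overlap was found in 29 (3.84%, beside 3.77% of the table), 25 of them lower in brown libraries (3.31%, beside 2.3%).

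The study's size threshold of 10 points was applied to BAT minus WAT at each day, with no test. At least 10 points in the same direction at days 0, 4 and 6 were reached by 19 cytosines (2.51%, beside 2.51% of the table). All 19 were lower in BAT, beside 1.62% of the table, and 0 were higher, beside 0.889%. At a threshold of 5 points 37 were lower and 3 were higher in BAT, and with 2 of the 3 days required 30 to 42 were lower and 5 to 7 were higher. Shares of the table at these other settings are not given. The Hoxd4 exon held 10 of the 19, fragments 13 and 24 held 3 each, fragment 25 held 2 and fragment 30 held 1. Fragment 23 had the widest BAT minus WAT difference of the cluster on every day, with -23.0, -19.5 and -27.0 points at days 0, 4 and 6. Fragment 24 had -13.05, -14.3 and -16.7 points, and fragment 25 had -13.2, -9.07 and -24.9 points. The difference in the Hoxd4 promoter had both signs, with 21.9, -4.72 and 14.5 points.

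**Figure D4:**
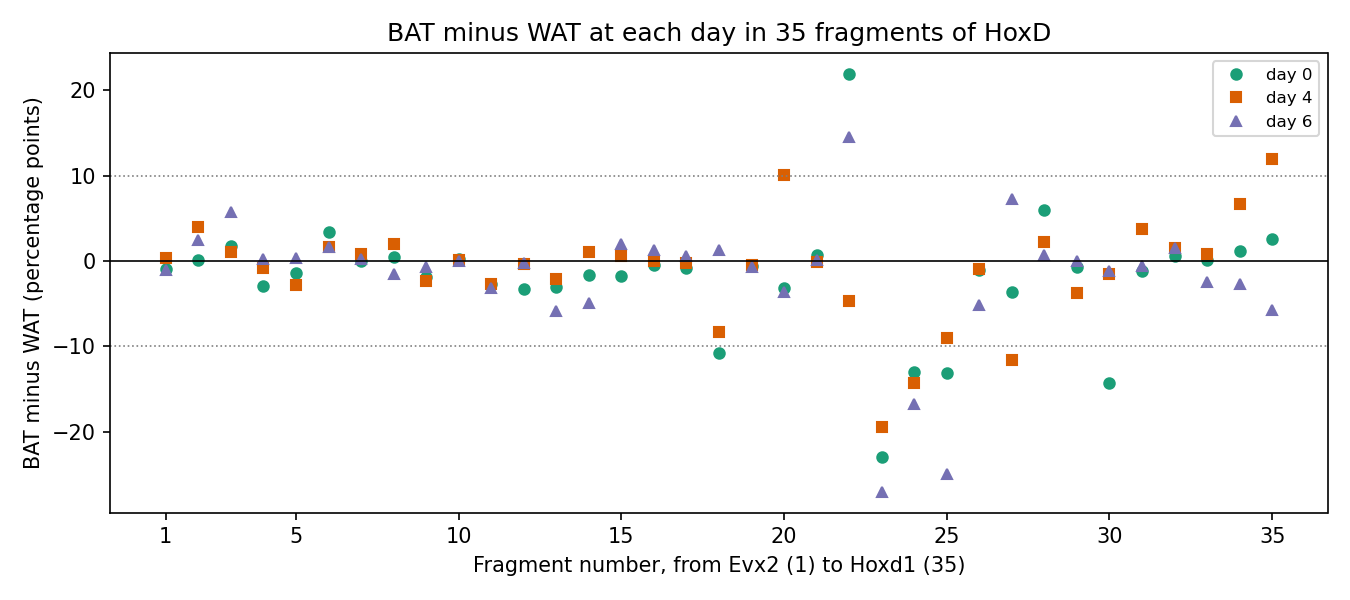
BAT minus WAT methylation (percentage points) in each of the 35 fragments, numbered from Evx2 (1) to Hoxd1 (35), at days 0, 4 and 6. Dotted lines mark 10 points in either direction. Fragments 23 and 24 lie below the lower line at all 3 days, and fragment 25 crosses it at days 0 and 6.

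Over single days, cytosines past 10 points in either direction made up 15.9%, 16.4% and 20.6% of the cluster at days 0, 4 and 6, beside 16.3%, 17.3% and 18.9% of the table. Those lower in BAT numbered 91, 74 and 101, which is 12.04%, 9.79% and 13.4% of the cluster, beside 9.35%, 9.43% and 10.3% of the table. Those higher in BAT numbered 29, 50 and 55, which is 3.84%, 6.61% and 7.28% of the cluster, beside 6.92%, 7.88% and 8.6% of the table. More cytosines were lower than higher in BAT in the cluster, as in the table, and the share in either direction was near that of the table at each day.

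Promoters were compared with the same test. The cluster had 17 promoters with at least 2 cytosines, 13 of them of Evx2 and Hoxd genes, and 1 of the 17 was called by limma, beside 1.37% of all 15694 promoters. It was lower in brown libraries, beside 0.867% of the table, and 0 were higher, beside 0.503%. The called promoter was the internal Hoxd3 start at 74570971 (adjusted p = 0.0150), whose 14 measured cytosines are those of fragment 24. In the fit of the 6 libraries without norepinephrine, with day as a factor, it was not called (adjusted p = 0.237), nor without BAT of day 0 (0.0674), without BAT + NE (0.0541) or without WAT of day 0 (0.0674). Without adjustment 3 of 17 promoters had a p below 0.05 (17.6%, beside 10.5% of all promoters), and 2 of 17, this one and Hoxd8, had no overlap, beside 4.82% of all promoters. Of the 17 annotated genes, Gm14396, Gm14426 and Mir10b had no such promoter. For Mir10b, a microRNA gene that lies in the Hoxd4 gene, the nearest measured cytosine was 2163 bp away, and the Hoxd3 starts at 74564785 and 74583731 had no promoter value either. Nor had the annotated Hoxd4 start nearest to the Hoxd4 exon.

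The promoters of the posterior genes overlapped between the groups. Evx2 was at 5.84%, 6.15% and 8.53% in BAT at days 0, 4 and 6 and 8.31% in BAT + NE, against 8.43%, 6.88% and 8.15% in WAT at days 0, 4 and 6 and 6.85% and 6.81% in BWAT at days 4 and 6. Hoxd13 was at 5.07%, 4.45% and 5.19% in BAT and 4.97% in BAT + NE, against 4.04%, 3.06% and 4.68% in WAT and 4.52% and 4.26% in BWAT. In both, at least 1 white library lay within the brown range. Hoxd12, a limb gene, was at 7.64%, 11.3% and 9.89% in BAT and 7.85% in BAT + NE, against 7.16%, 9.24% and 10.2% in WAT and 13.2% and 9.48% in BWAT. Hoxd11 was at 1.34%, 2.21% and 1.97% in BAT and 3.67% in BAT + NE, against 3.17%, 4.59% and 2.71% in WAT and 3.30% and 2.71% in BWAT. For Hoxd11 only BAT + NE reached the white range.

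Hoxd10, which acts in the spinal motor neurons of the hindlimb, had the highest posterior promoter level, on 6 cytosines. It was at 9.46%, 22.0% and 13.5% in BAT and 13.2% in BAT + NE, against 12.96%, 18.1% and 19.8% in WAT and 11.4% and 16.1% in BWAT. Hoxd9, a gene of limb and lumbar patterning, was at 0.889%, 1.43% and 1.65% in BAT and 1.29% in BAT + NE, against 1.80%, 1.502% and 0.845% in WAT and 0.739% and 2.01% in BWAT. Neither separated the groups. The Hoxd8 promoter holds the 44 cytosines of fragment 19, and over all promoters it was not called (limma, adjusted p = 0.116).

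On the anterior side, the distal Hoxd3 start was at 2.30%, 0.898% and 1.70% in BAT and 1.44% in BAT + NE, against 1.47%, 0.821% and 1.59% in WAT and 1.63% and 1.36% in BWAT. The internal Hoxd3 start at 74574572, with the cytosines of fragment 26, was at 7.94%, 11.8% and 8.70% in BAT and 9.38% in BAT + NE, against 9.06%, 12.7% and 13.9% in WAT and 9.60% and 12.2% in BWAT. The one at 74577676, with those of fragment 27, was at 48.3%, 48.5% and 58.4% in BAT and 53.3% in BAT + NE, against 51.9%, 60.1% and 51.2% in WAT and 56.3% and 49.3% in BWAT. Both had overlapping groups, and the annotated starts of this 1 gene ranged from nearly unmethylated to partly methylated. The Hoxd4 promoter holds the 4 cytosines of fragment 22 and was not called among promoters (limma, adjusted p = 0.330). Hoxd1 was at 1.09%, 2.17% and 2.02% in BAT and 1.57% in BAT + NE, against 0.689%, 0.891% and 1.97% in WAT and 3.02% and 1.24% in BWAT.

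No fragment of the cluster was called for differentiation. For later days against day 0, 0 of 35 fragments were called by limma (smallest adjusted p = 0.561), 2 had an unadjusted p below 0.05, and 0.173% of the table was called, with 8.57% at an unadjusted p below 0.05. The interaction of cell type and later days called 0 of 35 fragments by limma, with 1 at an unadjusted p below 0.05 (of all fragments, 0.00149% were called and 4.6% had such a p). The cluster mean of BAT was 1.47 points higher at day 4 and 0.983 points higher at day 6 than at day 0, and that of WAT was 0.343 and 0.375 points higher. The largest change between day 4 and day 0 was in fragment 22 in both cell types, and in opposite directions. It had 65.4% at day 4 and 78.8% at day 0 in BAT, and 70.1% at day 4 and 56.9% at day 0 in WAT. Between day 6 and day 0 the largest was fragment 27 in BAT, with 58.4% at day 6 and 48.3% at day 0, and fragment 30 in WAT, with 30.8% at day 6 and 39.3% at day 0. Between day 6 and day 4 the largest in BAT was Hoxd8 fragment 20, at -18.5 points, with 54.9% at day 6 and 73.4% at day 4. In WAT it was fragment 22, with 58.9% at day 6 and 70.1% at day 4.

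Norepinephrine was compared by 1 library against 1, with no test. BAT + NE differed from BAT of day 6 by 0.0982 points in the cluster mean, with 65 cytosines at least 10 points higher and 67 at least 10 points lower (17.5%, beside 16.7% of the table), and 0 of 35 fragments reached 10 points. The largest fragment difference was in the Hoxd4 promoter, with 68.3% in BAT + NE and 73.4% in BAT of day 6. BWAT differed from WAT by 0.622 points at day 4 and -0.429 points at day 6. The BWAT cells were an independent set, so norepinephrine and cell set cannot be told apart there. At day 4, 2 fragments were at least 10 points lower in BWAT, the larger of them Hoxd8 fragment 20, with 48.0% in BWAT and 63.4% in WAT (it was at 60.9%, 73.4% and 54.9% in BAT at days 0, 4 and 6, at 54.1% in BAT + NE, at 64.05% and 58.5% in WAT at days 0 and 6 and at 59.9% in BWAT at day 6), and at day 6 none was, the largest difference being fragment 25 with 77.3% in BWAT and 85.6% in WAT. In the Hoxd4 exon, BWAT was at 81.1% and 83.6% at days 4 and 6, against 80.6% and 90.1% in WAT and above all brown libraries.

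The other Hox clusters were counted in the same way, from 10000 bp below the first to 10000 bp above the last gene. Fragments called by limma were 4 of 35 in HoxD, against 17 of 44 in HoxA, 17 of 36 in HoxB and 18 of 26 in HoxC, shares of 11.4% in HoxD and 38.6%, 47.2% and 69.2% in the others. The widest difference of a fragment was 21.0 points in HoxD, against 69.98 points in HoxA, 48.0 points in HoxB and 52.8 points in HoxC. The difference in these shares was not tested. In the 500 kb below the cluster 1 of 9 fragments was called, and in the 500 kb above it 4 of 19.

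**Figure D5:**
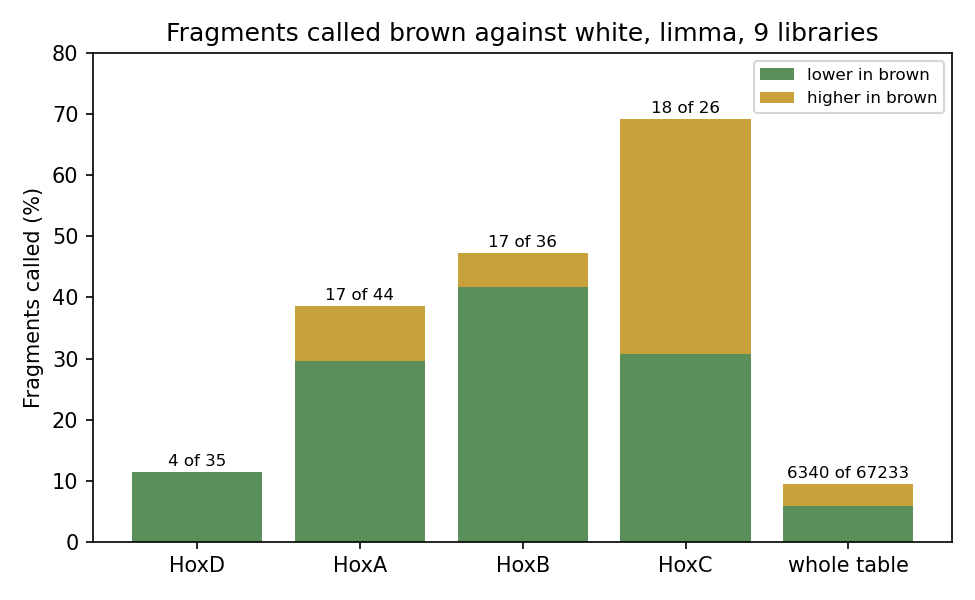
Share of fragments (%) called by limma between brown and white libraries in the 4 Hox clusters and the whole table, split by direction, with counts above the bars. HoxD has 4 of 35 fragments called, all lower in brown, beside 9.43% over the table.

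Among promoters, Hox genes of the other clusters had 5 called higher and 3 called lower in brown libraries of 30 promoters, beside 0 higher and 1 lower of 13 for HoxD and Evx2. The median difference was -0.175 points in the others and -0.494 points in HoxD, beside 0.00635 points over all promoters. The paralogues of Hoxd4 varied. Hoxb4 averaged 53.3% in brown libraries and 81.5% in white libraries, Hoxc4 averaged 0.646% in brown libraries and 36.0% in white libraries (both called, limma, adjusted p = 0.0136 and 1.2e-05), and Hoxa4 averaged 0.942% in brown libraries and 1.26% in white libraries. Promoters of Hox cofactors such as Meis and Pbx genes (8), of polycomb genes (20) and of DNA methylation genes (14) had 0 calls by limma, with 1, 4 and 0 at an unadjusted p below 0.05 in these lists, beside 1.37% called and 10.5% at such a p over all promoters.

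Cell type labels could be checked on promoter methylation alone, which is not expression. Of 5 promoters of brown fat markers 1 was called, Ebf2, lower in brown libraries (9.08%, against 18.8% in white libraries), and 3 had an unadjusted p below 0.05. Over all promoters 1.37% were called and 10.5% had such a p. Only 3 of the 5 listed brown fat genes and 2 of the 5 endothelial genes were measured. Of the haematopoietic list, only Emr1 and Itgam were measured. Of the fat cell list only Pparg was measured, at 0.916% in brown libraries and 0.597% in white libraries (limma, adjusted p = 0.820). The 3 promoters of Prdm16 lay between -5.91 and -0.0231 points, brown minus white, and Cidea was at 3.35% in brown libraries and 1.46% in white libraries (limma, adjusted p = 0.234). Of 3 promoters of white and beige markers, Hoxc9 and Hoxc10 were called higher in brown libraries (12.1% and 18.2%, against 1.06% and 2.47% in white libraries), and Tbx15 was at 1.61% in brown libraries and 2.03% in white libraries (limma, adjusted p = 0.948). Of markers of other cells, the endothelial gene Pecam1 (48.5% in brown libraries and 72.2% in white libraries) and the muscle lineage gene Myf5 (82.3% in brown libraries and 93.8% in white libraries) were called lower in brown libraries, 1 of 3 promoters in each list. In each of these 2 lists 2 promoters had an unadjusted p below 0.05. Of the haematopoietic promoters 0 of 2 were called or had such a p. The endothelial promoters ranged from 17.97% to 93.8% in brown libraries and from 15.9% to 95.8% in white libraries. The part of other cells in the HoxD differences was not tested.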

How the data were processed

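RRBS libraries of 9 conditions were used. Per the study's methods, DNA was digested with MspI and TaqI, size-selected, bisulfite-converted and sequenced as read pairs. Bowtie and mm9 are named in the processing notes of the submitters, without a version in the sources used here. The authors deposited methylation as a percent for every autosomal CpG cytosine that 10 or more reads covered in each of the 9 libraries. Read counts are not in the table used here, so depth is unknown beyond that minimum, no counting interval is given, and the Fisher exact test of the study was not run. All 838481 cytosines lay on CpGs of NCBIM37, and no value was missing.

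Positions were annotated with GENCODE vM1. A fragment or promoter level was the mean over its cytosines. Fragments (67233), promoters (15694, at least 2 cytosines) and cytosines of the whole table were fitted with limma 3.58.1 in R 4.3.3 on log2((level + 1)/(100 - level + 1)), over all 9 libraries, with cell type and later days against day 0 as terms, moderated variances and Benjamini-Hochberg adjustment. The code was checked on simulated data. Tables were handled with pandas 2.3.3 and plotted with matplotlib 3.10.9.

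Every fragment of the cluster enters the counts, but not every one has its own values printed. Values per library are given for called fragments, for promoters of Evx2 and Hoxd genes and for the fragments with the largest difference by day or norepinephrine, and fragments 11, 13 and 30 and the single cytosines were added after their values were seen. The members, gene lists and tests were chosen with earlier results of these data known. Alternatives changed the day term, the libraries, the offset, the scale, the fragment and promoter definitions, the strands, the size threshold and the cytosines inside restriction sites.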

Additional observations from a re-analysis of the deposited data

Results flagged for a closer look

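In fragment 13, in the Gm20440 intron just past Hoxd11, WAT of day 6 stood apart from the other white libraries, with 14.6%, where the other 4 lay between 10.6% and 11.7%, past Dixon's critical value. It was the only such case among 70 groups of libraries over the 35 fragments (1.43%), where chance gives about 1 in 20. The brown libraries lay between 8.33% and 9.50% there, the groups did not overlap, and the fragment was not called (limma, adjusted p = 0.0856).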

How the results depend on the processing

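The labels carry no replicate numbers to use as a block, and each condition was 1 library. BAT and WAT were matched by day in 1 alternative. In it, with the 6 libraries without norepinephrine and day as a factor, limma called 1 fragment (the Hoxd4 exon), 0 cytosines and 0 promoters of the cluster. On the percent scale 6 cytosines were called. Shares of the whole table are given for the main fits and thresholds only, so the counts under alternatives have no such share beside them. Leaving out each library in turn, limma called 3 to 4 fragments, 1 to 4 cytosines (1 without BAT of day 6 and 1 without WAT of day 4) and 0 to 1 promoters (0 without BAT of day 0, without BAT + NE or without WAT of day 0), and the difference of the cluster mean ran between -1.65 and -1.16 points. Fits without BAT of day 0 and without WAT of day 0 are the same, since the lone day 0 library left is taken up by the day term. Cytosines at least 10 points apart at all 3 days numbered 19, and the count was 40 at 5 points, 3 at 20 points, 38 with days 4 and 6 alone, 47 with days 0 and 6 and 37 with days 0 and 4 (3, 0, 5, 5 and 7 of them higher in BAT). The causes of these moves were not tested, beyond the fewer libraries or looser thresholds themselves. The Hoxd4 exon was called under each of its 15 alternatives, Hoxd3 fragments 24 and 25 under 14 of 15 each, and Hoxd8 fragment 19 under 0 of 14. Fragment 22, the Hoxd4 promoter, was not called in the main fit and was called under 1 of 14 alternatives. The Hoxd3 promoter was called under 10 of 14, with adjusted p between 0.00890 and 0.237. The cluster mean, fragments 19 and 22 to 25 and the Hoxd3 promoter kept their direction under each of their alternatives. Of the called cytosines, 1 was higher and 2 were lower in brown libraries, whereas 3 were higher and 1 was lower without BAT of day 0 or WAT of day 0, 2 and 1 without BAT of day 4, and 1 and 0 without BAT of day 6 or WAT of day 4. With percents and no reads, differences at levels near 0 or at single cytosines cannot be set against counting error.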
